A study of Bos taurus with 15 samples.

Results

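The genes described here are 6 that build or dress lipoproteins, the particles that carry fat and cholesterol: APOA1, APOA4, APOB, APOC3, APOE and MTTP. They were chosen by symbol from the 27270 gene rows of a cattle single-cell atlas, because their levels in these libraries were already known to differ between tissues, so the levels below are a description and none of them was tested. The files list them as ENSBTAG00000002258 (APOA1), ENSBTAG00000019770 (APOA4), ENSBTAG00000008505 (APOB), ENSBTAG00000012398 (APOC3), ENSBTAG00000010123 (APOE) and ENSBTAG00000011944 (MTTP), and each symbol matched 1 gene of the RefSeq table. APOA1, APOC3 and APOA4 are neighbours on the chromosome with overlapping annotated spans in that table, which is of another assembly than the files. Whether reads were counted by strand was not given in the sources used here, and how reads in the overlaps were assigned was not checked.

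Enterocytes, the absorptive cells of the small intestine, package absorbed fat into chylomicrons, and liver cells package fat into very-low-density lipoproteins. In both, APOB is the protein scaffold of the particle, and MTTP, a transfer protein of the endoplasmic reticulum, loads lipid onto it. APOA1, the main protein of high-density lipoprotein, APOA4, a chylomicron protein of the small intestine, and APOC3, an inhibitor of triglyceride clearance, sit on the particle surface, whereas APOE, the ligand through which remnant particles are taken up, is also made in quantity by macrophages.

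The data were droplet-based single-cell RNA sequencing libraries from newborn (NB) and adult (AD) cattle, 15 in all, with 1 library per tissue and stage. The 11 NB libraries came from liver and salivary gland, from rectum, cecum and colon of the large intestine, from jejunum, duodenum and ileum of the small intestine, and from abomasum, reticulum and omasum of the stomach; the 4 AD libraries were of colon, cecum, jejunum and duodenum. The AD tissues came from 1 lactating Holstein dairy cow, and the labels did not say which NB calf gave which library. Dissociation went with stage: NB stomach and gut pieces were treated with EDTA and trypsin before further enzymes, which for the gut came from a propria kit, whereas no such first steps were described for AD. AD duodenum and cecum were digested with a lamina propria kit and AD jejunum and colon with a multi tissue kit. Stage, animal and dissociation therefore cannot be told apart in any NB to AD difference, and with 1 library per tissue and stage no difference had a replicate check. Within NB, liver was digested with collagenase, papain and DNase, and salivary gland with collagenase, dispase and DNase. Tissue and dissociation cannot be told apart where these libraries are set against stomach or gut.

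Total unique molecular identifier (UMI) counts ran from 17707625 to 129458578 per library, and 2636 to 11614 barcodes per library were kept, with median depths of 4306 to 8896 UMIs in NB and 3528 to 3882 in AD libraries. Of 118004 different barcode sequences kept, 1781 occurred in more than 1 library, 2 to 36 per pair of libraries, and the levels that moved most without such barcodes are given both ways. Levels are counts per 1000000 UMIs (CPM) of summed barcodes; the ranges in parentheses are exact Poisson 95% intervals, which cover counting error only. Because 1 end of each transcript was counted, CPM was not divided by transcript length. Whether different genes were captured alike was not tested, so their levels are set side by side only as a description.

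Barcodes were sorted by 3 genes: epithelial (EPCAM), immune (PTPRC) and stromal (COL1A2), each with at least 1 UMI of its own gene and none of the other 2. EPCAM barcodes held the epithelial markers at 2860 to 4654 CPM in NB duodenum, jejunum, cecum and colon and at 8080 to 11520 CPM in AD jejunum, cecum and colon. Epithelial markers stood lowest in AD duodenum, with 40 EPCAM barcodes in all, at 1681 CPM against 3913 in NB duodenum. T or NK markers stood there at 871 CPM against 7.67 in NB, and macrophage markers at 979 against 206. Markers of other cells were found elsewhere too. Macrophage markers stood at 453 CPM in NB and 662 in AD jejunal EPCAM barcodes, and endothelial markers at 519 in NB cecum. The part of these mixtures in the comparisons below was not tested.

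Across the atlas the 6 genes separated into 3 distributions. APOB, APOA4, APOC3 and MTTP were abundant in the epithelium of NB duodenum and jejunum, APOA1 was abundant there and in NB liver EPCAM barcodes, and APOE was higher in immune and stromal than in epithelial barcodes of most libraries. Together the 6 genes took 1.31% of all EPCAM UMIs in NB duodenum, 2.59% in NB jejunum and 4.63% in NB liver. In the other libraries they took at most 0.0578% (NB ileum), and 0.0571% in AD jejunum.

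**Figure D1:**
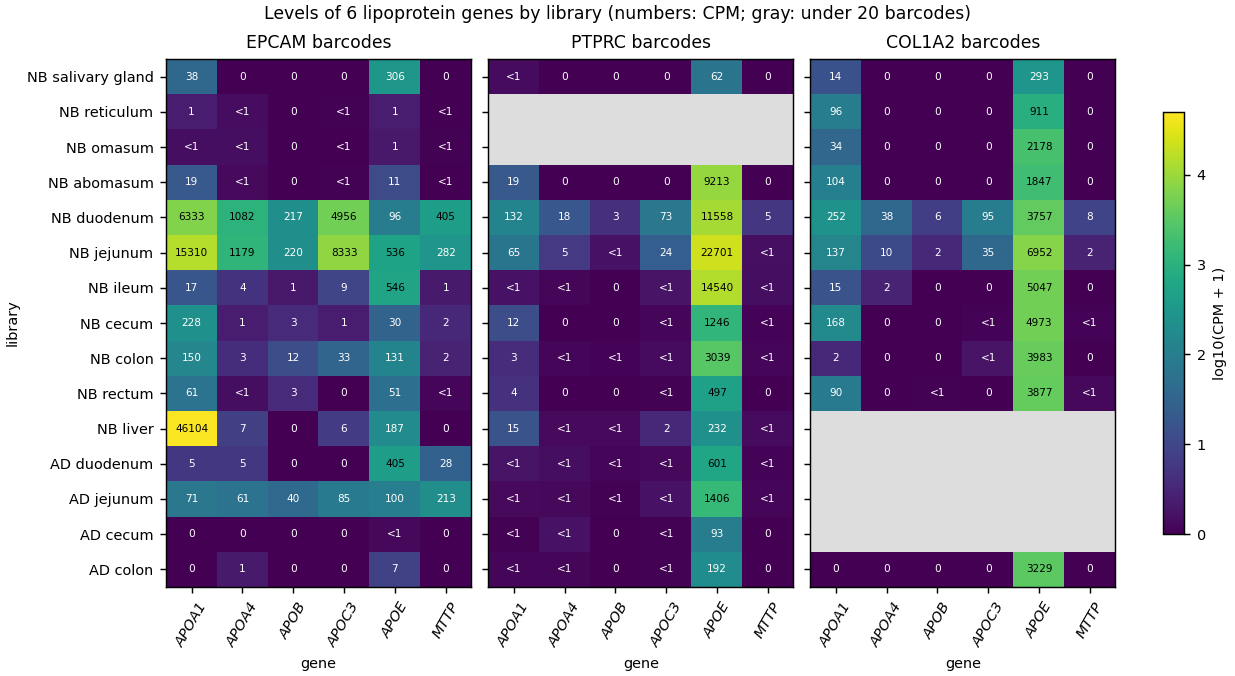
Levels of the 6 genes in each library (rows), in EPCAM, PTPRC and COL1A2 barcodes (panels), as color on a log10(CPM + 1) scale with CPM printed in each cell; gray cells had under 20 barcodes. The brightest EPCAM cells are APOA1 in NB liver (46104 CPM) and jejunum (15310), then APOC3 in NB jejunum (8333) and APOA1 in NB duodenum (6333). In PTPRC and COL1A2 barcodes APOE is the brightest column.

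Compared in the same library, EPCAM barcodes were called higher than PTPRC barcodes in 27 of the 90 gene and library pairs. A call meant at least a 2-fold difference with 5 CPM added to both sides and intervals that did not overlap; over all genes 8.0% of pairs were called this way. APOA1 was higher in the epithelium in 9 libraries, APOC3 in 5, and APOA4, APOB and MTTP in 4 each. The opposite direction was called in 11 pairs, against 9.17% over all genes, and all 11 were APOE. The NB omasum value, 1127 against 1.12 CPM, rested on 8 PTPRC barcodes. The 1 library with more APOE in EPCAM barcodes was the salivary gland, at 306 (231 to 397) against 62.5 (57.9 to 67.3) CPM, where the 30 EPCAM barcodes also held macrophage markers at 1703 and endothelial markers at 835 CPM.

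The stomach epithelium held little of any of the 6. In the reticulum and omasum, which are lined by stratified epithelium, no gene exceeded 1.37 CPM over 3956 and 6513 EPCAM barcodes. In the abomasum, the glandular stomach, APOA1 stood at 19.3 (18.2 to 20.5) and APOE at 10.8 (9.99 to 11.7) CPM, APOB had no UMI, which allows up to 0.0504 CPM, and the other 3 genes were at most 0.302 CPM.

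Along the NB intestine, the levels of 5 genes dropped between jejunum and ileum. APOB, the particle scaffold, stood at 217 (213 to 222) CPM in duodenum and 220 (212 to 228) in jejunum. Its ileal level was 1.06 CPM, and the cecal, colonic and rectal levels were 2.73, 12.2 and 2.80 CPM. MTTP, which lipidates it, stood at 405 (399 to 411) and 282 (273 to 292) CPM in duodenum and jejunum, and at 1.22, 2.39, 1.83 and 0.156 CPM in the next 4 segments. Over all EPCAM barcodes the scaffold thus had nearly the same level in both proximal segments, with overlapping intervals. Its loading protein was lower in jejunum than in duodenum. Neither held in the barcodes with enterocyte markers described below, where APOB was higher in jejunum and MTTP was not lower there.

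The surface proteins had the same boundary at higher levels. APOA1 stood at 6333 (6308 to 6358) CPM in duodenum and 15310 (15243 to 15377) in jejunum, against 17.0 (14.0 to 20.5) CPM in ileum. Its large intestinal levels were 228 (211 to 246) CPM for cecum, 150 (142 to 158) for colon and 61.4 (55.5 to 67.7) for rectum. APOC3 stood at 4956 and 8333 CPM in the first 2 segments, at 8.51 CPM in ileum, and at 1.37, 32.9 and 0 CPM in the last 3, where the rectal 0 allows up to 0.467 CPM. APOA4 stood at 1082, 1179, 3.95, 1.37, 3.15 and 0.467 CPM from duodenum to rectum. Without barcode sequences shared between libraries, the colonic level of MTTP was 0.320 and of APOA4 0.748 CPM, and the cecal level of APOB was 1.44 and of APOC3 0.719 CPM. Beyond the ileum the APOA1 level of all EPCAM barcodes was higher again in all 3 segments, whereas APOA4 stayed under 4 CPM. Endothelial markers stood at 519 CPM in the cecal and 386 CPM in the rectal EPCAM barcodes, against 195 CPM in the ileal ones. The colonic ones were lower, at 64.2 CPM. COL1A2 barcodes held APOA1 at 168 CPM (cecum), 90.4 CPM (rectum) and 2.32 CPM (colon). The part of other cells in these distal APOA1 levels was not tested.

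APOE, the remnant ligand, followed another course, at 96.5, 536 and 546 CPM along the small intestine (duodenum to ileum) and 30.4, 131 and 51.1 CPM along the large intestine (cecum to rectum). Jejunum and ileum had overlapping intervals. Of the 6 genes it was the 1 whose level in the ileum was not below that in the duodenum.

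**Figure D2:**
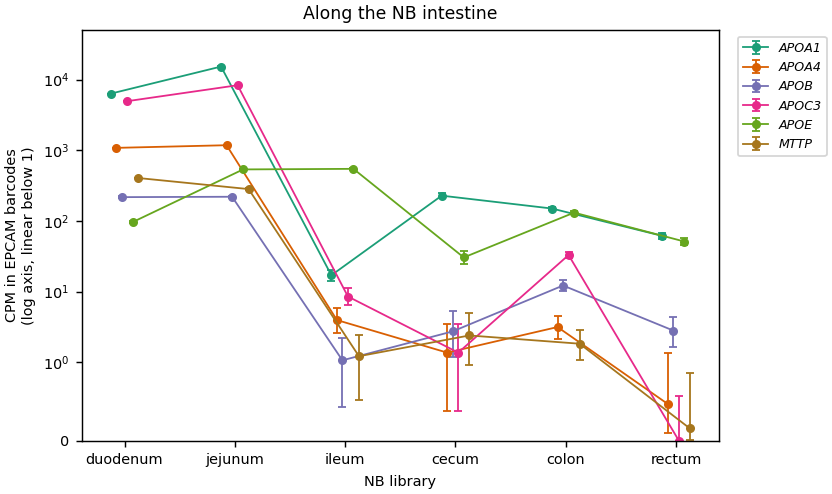
CPM of each gene in EPCAM barcodes (y axis, log scale, linear below 1) in the 6 NB intestinal libraries from duodenum to rectum (x axis); points are levels, bars exact Poisson 95% intervals, and lines join the libraries of a gene. APOB, MTTP, APOA4, APOC3 and APOA1 drop between jejunum and ileum, and APOA1 rises again to 228 CPM in cecum. The cecal EPCAM barcodes also held endothelial markers at 519 CPM. Most APOE UMIs of duodenum, jejunum, ileum and colon lay in barcodes that also had macrophage markers.

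The anatomical division into small and large intestine did not separate the genes. None of the 6 was at least 2-fold higher in all 3 small intestinal libraries than in all 3 large intestinal libraries, against 0.174% of 18443 genes, and none showed the reverse, against 0.499%. Without the ileum 5 of 6 met the first rule, against 1.01% of genes. Put as duodenum and jejunum against ileum, cecum, colon and rectum, a division chosen after the values were seen, 5 of 6 genes lay apart, all but APOE, against 0.699% of all genes. In the other direction 0 of 6 did, against 0.298%.

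Of 74 other lipid pathway genes, 15 lay apart by that division in the same direction and 1, AGPAT2, in the other. They included APOC2, the activator of lipoprotein lipase, at 343 and 387 CPM in duodenum and jejunum and at most 5.17 elsewhere in the NB gut. The synthesis enzymes DGAT1, which makes triglyceride, and ACSL5, which activates fatty acids, stood at 211 and 195 and at 232 and 180 CPM, against at most 86.4 and 63.6. The fatty acid transporters CD36 (139 and 129 against at most 34.5 CPM) and SLC27A4 (307 and 294 against at most 11.96) followed the same division. Among regulators, CREB3L3, a factor of lipid metabolism in liver and gut, stood at 94.2 and 89.9 CPM against at most 0.203, and GATA4, which is known to mark proximal intestine, at 68.7 and 41.8 against at most 0.102.

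The ileal EPCAM barcodes did hold other intestinal genes. CDX2, the factor that specifies intestinal epithelium, stood at 53.5 CPM there against 69.2 and 71.0 in duodenum and jejunum, and HNF4G at 61.9 against 229 and 180. FABP6, the ileal bile acid binding protein, stood at 287 CPM in ileum against 1.11 and 15.8, while FABP2, the intestinal fatty acid binding protein, stood at 88.5 against 6390 and 4685 CPM.

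Within the epithelium of NB jejunum and duodenum, the levels of all genes of the 6 but APOE were concentrated in barcodes with enterocyte markers, defined as at least 2 of 10 enterocyte genes and more than of any other marker list. In NB jejunum, 405 such barcodes held 197485 of the 199283 APOA1 UMIs of all EPCAM barcodes, at 39784 CPM, against 143 CPM in goblet-marker and 149 CPM in dividing or stem-marker barcodes. The other levels in the enterocyte-marker barcodes were 21469 CPM for APOC3, 3028 for APOA4, 666 for MTTP, 565 for APOB and 181 for APOE. In NB duodenum 1543 such barcodes held APOA1 at 10687, APOC3 at 8410, APOA4 at 1811, MTTP at 629, APOB at 368 and APOE at 24.2 CPM. APOE thus stood lower in these barcodes than in all EPCAM barcodes (536 CPM in jejunum, 96.5 in duodenum), and in jejunum they held 898 of its 6977 UMIs. Of the 405 jejunal barcodes with enterocyte markers, 95 had under 10% mitochondrial UMIs. Those 95 held 20514 of the 197485 APOA1 UMIs, at 16856 CPM.

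Enterocyte-marker barcodes of the ileum did not share these levels. The 55 in NB ileum held APOA1 at 145, APOC3 at 70.4, APOA4 at 21.0, APOB at 10.5 and MTTP at 7.48 CPM. A single ileal EPCAM barcode held 34 of the 56 APOC3 UMIs and 65 of the 112 APOA1 UMIs of that library, so these levels rested largely on 1 barcode. It also held 7 of the 7 APOB UMIs but 1 of the 8 MTTP UMIs. In NB rectum, 122 enterocyte-marker barcodes held APOA1 at 5.34 CPM, against 61.4 CPM in all rectal EPCAM barcodes, and no APOC3.

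The levels varied widely among NB jejunal enterocyte-marker barcodes. APOA1 ran from 76.3 CPM at the 10th percentile to a median of 7095 and 139436 CPM at the 90th, and the top 10% of barcodes held 44.0% of its UMIs. MTTP was more even, with a median of 527 CPM and 32.6% of its UMIs in the top 10%. After thinning each barcode to 1000 UMIs, APOC3 was detected in 79.8% (75.5 to 83.6, exact binomial 95% interval) of them, APOA1 in 73.6% (69.0 to 77.8), APOA4 in 57.8%, MTTP in 41.0% and APOB in 33.1%. Unthinned, the shares were 92.3%, 93.3%, 84.0%, 85.4% and 67.7%.

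The genes varied together among these barcodes, APOE apart. Over the 405 NB jejunal barcodes, Spearman's rho of CPM with APOA1 was 0.97 for APOC3, 0.93 for APOA4, 0.87 for APOB, 0.77 for MTTP and 0.13 for APOE. Over the 1543 NB duodenal barcodes the same values were 0.88, 0.90, 0.82, 0.63 and -0.07. All points share 1 library and differ in depth, and barcodes are not replicates.

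Between stages, 16 of 24 gene and tissue pairs in EPCAM barcodes were called higher in NB and 1 higher in AD. Over all genes, 4.90% of pairs were called higher in NB and 7.19% higher in AD, and over pairs at 10 CPM or more in either stage 9.05% and 13.9%. The genes were chosen with this contrast known, so the count describes them and supports nothing further. Without the duodenum, where AD had 40 barcodes, 11 pairs of the 6 genes with jejunum, cecum and colon were higher in NB and 0 in AD. Over all genes, 4.44%, 5.65% and 2.94% were higher in NB in those tissues, in that order, and 8.21%, 3.93% and 8.47% in AD.

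In the jejunum, the tissue with the most AD signal, 5 of 6 genes were higher in NB (background 4.44%) and 0 of 6 in AD (background 8.21%). APOA1 stood at 15310 CPM in NB and 71.2 (59.1 to 85.1) in AD, a 215-fold difference (interval 180 to 259). APOC3 stood at 8333 and 84.8 (71.5 to 99.8) CPM, 98.3-fold (83.5 to 117), and APOA4 at 1179 and 61.2 (50.0 to 74.2), 19.3-fold (15.9 to 23.6). APOB stood at 220 and 40.0 (31.1 to 50.8) CPM, 5.49-fold (4.32 to 7.09), and APOE at 536 and 100.1 (85.6 to 116), 5.36-fold (4.60 to 6.27). Endothelial markers stood at 258 CPM in NB and 26.5 in AD jejunal EPCAM barcodes, and stromal markers at 34.4 and 0.589. Their part in the APOE values was not tested.

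In jejunum, APOE apart, the surface proteins APOA1, APOC3 and APOA4 were furthest apart between stages. The scaffold APOB came next, and the loading protein was nearest. APOE, at 5.36-fold, lay beside APOB at 5.49-fold. MTTP stood at 282 CPM in NB and 213 (192 to 236) in AD jejunum, 1.32-fold (1.19 to 1.48), under the 2-fold limit. MTTP was 299% of APOA1 in AD and 1.84% in NB jejunum, and APOC3 was 119% of APOA1 in AD and 54.4% in NB. In AD jejunum 3 EPCAM barcodes held 99 of the 144 APOC3 UMIs.

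**Figure D3:**
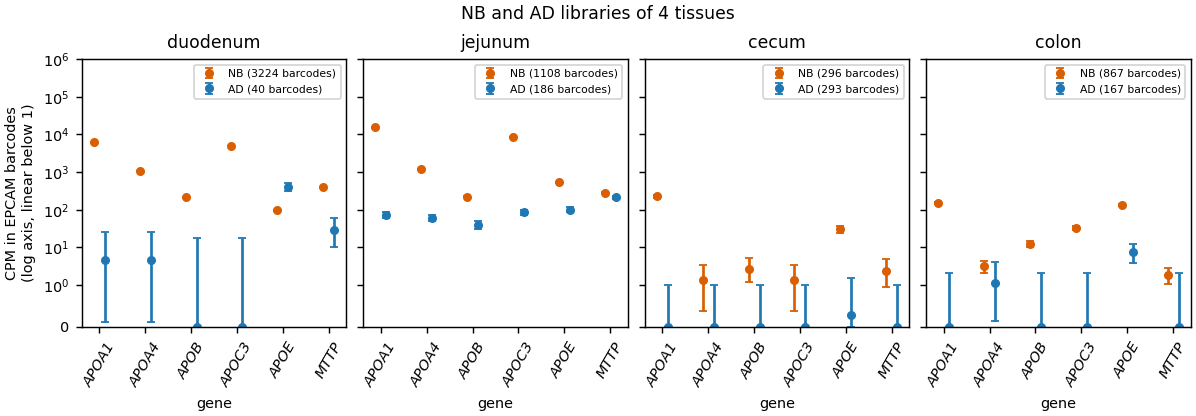
CPM in EPCAM barcodes (y axis, log scale, linear below 1) of each gene (x axis) in NB (orange) and AD (blue) libraries of duodenum, jejunum, cecum and colon; points are levels, bars exact Poisson 95% intervals, and the legends give barcode numbers. In duodenum and jejunum the points lie furthest apart for APOA1 and APOC3; those of MTTP lie close together in jejunum (282 and 213 CPM), and those of APOE are reversed in duodenum.

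The near equality of MTTP depended on the limit set on mitochondrial reads. With only barcodes under 10% mitochondrial UMIs, 99 AD and 598 NB jejunal EPCAM barcodes remained, MTTP stood at 3 UMIs or 3.71 (0.765 to 10.8) CPM in AD against 91.3 (84.5 to 98.5) in NB, and the log2 ratio moved from 0.40 to 3.47. FABP2 stood in the same barcodes at 172 CPM in AD against 1337 in NB, and 14 AD barcodes with enterocyte markers were left. APOA1 stood at 12.4 (5.93 to 22.7) against 2941 CPM and APOC3 at 0 against 1605 under that limit, so their direction was the same. APOB stood at 47.4 CPM in NB and had no UMI in AD. Whether APOB or MTTP was further apart under that limit therefore could not be told.

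In the duodenum, AD EPCAM barcodes held 1 UMI of APOA1 and 1 of APOA4 (4.71 CPM each) and none of APOB or APOC3, where 0 allows up to 14.1 CPM. Against these, NB levels were 1345-fold higher for APOA1 (interval 241 to 53122) and 230-fold higher for APOA4 (41.2 to 9075), at least 351-fold higher for APOC3 and at least 15.4-fold higher for APOB (background 6.52%). MTTP stood at 405 against 28.3 (10.4 to 61.5) CPM, 14.3-fold (6.58 to 39.1). FABP2 was also low in these AD barcodes, at 132 against 6390 CPM in these same groups.

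In the large intestine the calls were carried mainly by APOA1 and APOE. AD cecum held none of 5 genes in 293 EPCAM barcodes, where 0 allows up to 0.834 CPM, and NB cecum was at least 273-fold higher in APOA1 (background 5.65%). Markers of other cells moved with it: endothelial markers stood at 519 CPM in NB and 0.556 in AD cecal EPCAM barcodes, stromal markers at 122 and 0.278, and macrophage markers at 105 and 7.79. The 269 NB cecal EPCAM barcodes with under 2 macrophage markers held APOA1 at 146 CPM, and the 27 others held 281 of the 667 UMIs. The part of endothelial and stromal markers in the cecal values was not tested. AD colon held no APOA1 in 167 EPCAM barcodes, and NB colon was at least 87.4-fold higher (background 2.94%), with endothelial markers at 64.2 in NB and 39.4 CPM in AD and macrophage markers at 214 and 9.71. APOA4 and MTTP were called in neither segment, and none of the 6 was called higher in AD, where the background was 3.93% in cecum and 8.47% in colon. FABP2 went the other way, at 1086 CPM in AD cecum and 2358 in AD colon, against 0 and 105 in NB. FABP1 was called in neither segment, at 5452 CPM in AD and 5300 in NB cecum and 2470 in AD and 1839 in NB colon.

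In NB colon, APOB at 12.2 (10.1 to 14.6) and APOC3 at 32.9 (29.4 to 36.7) CPM were also above AD, which had none, by at least 7.11-fold and 19.2-fold. The APOC3 value rested on few barcodes: 3 held 314 of its 324 UMIs, and 2 of those 3 carried a barcode sequence also listed in NB duodenum or jejunum. In all, 14 of the 867 EPCAM barcodes of NB colon shared a sequence with those libraries, and they held 297 of the 324 APOC3, 24 of the 31 APOA4, 259 of the 1474 APOA1 and 20 of the 120 APOB UMIs. Without barcodes shared between libraries, APOC3 in NB colon was 2.88 (1.90 to 4.20) CPM with a log2 ratio of 0.66 to AD and no longer called, while APOA1 was 130 and APOB 10.7 CPM.

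The jejunal comparison was also made within enterocyte-marker barcodes, at 405 NB barcodes with a median of 12277 UMIs and 57 AD barcodes with 15628. Whether these held the same kind of cell in both stages was not tested. APOA1 stood at 39784 against 125 (103 to 151) CPM, 317-fold (263 to 385). APOC3 stood at 21469 against 163 (137 to 192), 132-fold (112 to 156), APOA4 at 3028 against 112, 27.1-fold (22.2 to 33.3), and APOB at 565 against 76.9, 7.35-fold (5.78 to 9.49). As in all EPCAM barcodes, MTTP was nearest, at 666 against 408 (367 to 452) CPM, 1.63-fold (1.46 to 1.82), and 5 of 6 genes were called higher in NB against 4.18% of all genes.

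FABP2 stood at 11869 against 9116 CPM in the same barcodes, 1.30-fold (1.27 to 1.33). Both near values were lost under the limit of 10% mitochondrial UMIs, where 14 AD and 95 NB enterocyte-marker barcodes remained: FABP2 stood at 380 (297 to 478) CPM in AD against 7312 in NB, and MTTP at 2 UMIs or 10.5 (1.28 to 38.1) CPM against 407. APOA1, APOA4, APOB and APOC3 had no UMI in these 14 barcodes. The markers themselves were uneven: lactase (LCT) stood at 79.2 CPM in NB and had no UMI in AD, SLC5A1, the glucose transporter of the brush border, at 112 against 9.04, and ANPEP, a brush border peptidase, at 343 against 2160. Thinned to 1000 UMIs, APOA1 was detected in 7.02% (1.95 to 17.0) of AD against 73.6% of NB enterocyte-marker barcodes, and MTTP in 19.3% (10.0 to 31.9) against 41.0%.

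Among the 74 pathway genes in these barcodes, 14 were higher in NB and 7 in AD, where 4.18% and 5.59% of all genes were. Of the 7120 genes at 10 CPM or more, 521 were higher in NB and 732 in AD. The median log2 ratio of the 74 pathway genes was 0.03, against 0.03 over all 14095 genes with a UMI and -0.17 over those 7120. Of 11 synthesis genes, 5 were higher in NB and none in AD, including DGAT1 (417 against 114 CPM), ACSL5 (372 against 89.3) and PLIN3, a lipid droplet coat protein (179 against 36.2). Of 13 uptake and sterol transport genes, 5 were higher in NB, including CD36 (199 against 30.5), SLC27A4 (723 against 118) and FABP1 (23068 against 3986), and 3 in AD, the fatty acid transporter and synthetase SLC27A2 (183 against 37.7) and the sterol exporters ABCG5 (13.6 against 3.83) and ABCG8 (58.8 against 11.1).

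Of 11 assembly and export genes 3 were called. P4HB, the partner subunit of MTTP, at 891 against 286 CPM, and PRAP1, a lipid-binding protein of the gut, at 1368 against 619 were higher in NB, and MIA3, a cargo receptor for large particles, at 69.0 against 29.6 was higher in AD. SAR1B, the GTPase of chylomicron export, stood at 33.8 in NB and 33.9 in AD. Of 10 other apolipoproteins, APOC2 stood at 943 CPM in NB and 0 in AD, at least 278-fold higher, whereas APOH at 72.3 against 3.83 and CLU at 661 against 296 were higher in AD. None of 14 receptor and remodelling genes was called, and of 15 regulators NR0B2 (44.3 against 1.13) was higher in NB and GATA4 (131 against 58.6) in AD.

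Over whole EPCAM sums and 4 tissues, 52 of 296 pathway gene and tissue pairs were higher in NB and 15 in AD, where 4.90% and 7.19% of pairs over all genes were, and 9.05% and 13.9% of those at 10 CPM or more. Of the 74 in each tissue, 24, 12, 11 and 5 were higher in NB and 2, 5, 2 and 6 in AD, for duodenum, jejunum, cecum and colon; over all genes the shares in that order were 6.52%, 4.44%, 5.65% and 2.94% for NB and 7.89%, 8.21%, 3.93% and 8.47% for AD. The median log2 ratio of all genes with a UMI was 0.04, -0.07, -0.04 and -0.10 in these tissues, and that of all genes at 10 CPM or more was 0.04, -0.33, -0.14 and -0.36.

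APOA1 parted from the other chylomicron genes in NB liver. The 138 EPCAM barcodes there held it at 46104 (45658 to 46552) CPM, 119 of them above 5000 CPM and with a median of 41092. APOC3 stood at 5.63 (1.83 to 13.1) and APOA4 at 6.76 CPM in these barcodes, and APOB and MTTP had no UMI, which allows up to 3.38 CPM. In the 8320 PTPRC barcodes of the liver APOA1 stood at 14.996 CPM.

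Those liver barcodes carried genes of bile duct cells and some plasma protein genes of hepatocytes. Of 138, 120 had at least 2 of 8 cholangiocyte markers, a list added after seeing the data, with KRT19 at 713, ONECUT1 at 545, KRT7 at 494, SCTR at 457 and CFTR at 344 CPM. The plasma protein genes AHSG at 15668, TF at 3454, ALB at 984 and TTR at 918 CPM were high in the same barcodes. Of the other 7 of 11 hepatocyte markers FGG stood at 774, FGA at 114, FGB at 77.7 and SERPINA1 at 37.2 CPM, against 15.7, 2.03, 38.3 and 20.4 CPM in liver PTPRC barcodes and those with no sorting gene together, and FETUB, VTN and ITIH3 stood at 4.51 to 10.1 CPM. ALB was detected in 98 of the 138, and in 96 of the 119 with APOA1 above 5000 CPM. No liver barcode without the 3 sorting genes had 5% of its UMIs from hepatocyte markers, and 4 EPCAM barcodes did.

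APOA1 without APOA4, APOB, APOC3 or MTTP at like levels was also found in endothelial-marker barcodes. In barcodes with none of the 3 sorting genes and at least 2 of 8 endothelial markers, APOA1 stood at 563 CPM in reticulum, 446 in omasum, 645 in abomasum, 1163 in cecum, 270 in colon and 787 in rectum of NB, and APOC3 had no UMI in any of these 6. In duodenum and jejunum, where the epithelium was rich in both, endothelial-marker barcodes held APOA1 at 396 and 189 CPM and APOC3 at 76.9 and 34.0. In ileum APOA1 stood at 89.3 and in liver at 132 CPM. APOE was the other gene of the 6 in these groups: it stood above APOA1 in ileum (2091 CPM) and jejunum (977 CPM) and below it in the other 8 NB libraries, where it ran from 3.30 CPM in reticulum to 307 in cecum, with 218 CPM in colon.

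The endothelial level exceeded that of the epithelium in several NB tissues. It was 563 against 1.37 CPM in reticulum, 645 against 19.3 in abomasum, 1163 against 228 in cecum and 787 against 61.4 in rectum. In abomasum, COL1A2 barcodes held 104 CPM, PTPRC barcodes 19.3 and smooth muscle or pericyte-marker barcodes 8.48. In NB duodenum and jejunum the smooth muscle or pericyte-marker barcodes stood nearer to the endothelial values, at 295 against 396 and 113 against 189 CPM. Barcodes with lymphatic markers, also listed after seeing the data, stood below the remaining endothelial barcodes in jejunum (108 against 216 CPM) and rectum (455 against 885) and above them in cecum (1430 against 1004).

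In AD, endothelial-marker barcodes were few. The 24 in colon held 9 UMIs of APOA1, 56.3 (25.8 to 107) CPM, and the 30 in cecum held 3, 40.5 (8.34 to 118) CPM, while the EPCAM barcodes of both libraries held none. Stromal barcodes of NB carried APOA1 at 2.32 (colon) to 252 CPM (duodenum), and those of AD colon had no UMI in 141 barcodes.

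**Figure D4:**
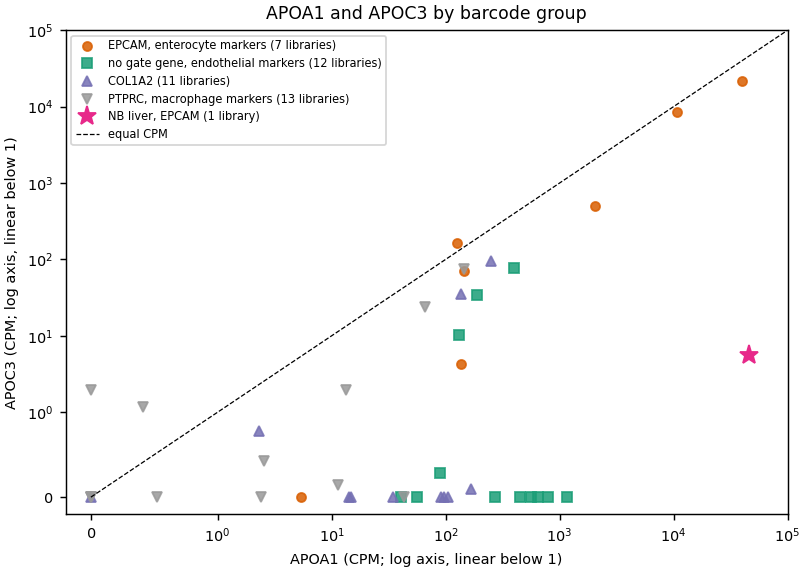
APOA1 (x axis) against APOC3 (y axis), both in CPM on log axes that are linear below 1; each point is 1 barcode group of 1 library, and the dashed line marks equal levels. Of the enterocyte-marker groups, those of NB duodenum, jejunum and ileum and of AD jejunum lie near the line, up to 39784 and 21469 CPM, and those of NB cecum, colon and rectum lie to its right, while NB liver EPCAM barcodes (46104 and 5.63 CPM) and most endothelial-marker groups lie far to its right.

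Free RNA shared by all droplets of a library reaches barcodes that do not express a gene. In NB jejunum, PTPRC barcodes held APOA1, APOA4, APOB, APOC3 and MTTP at 0.204 to 0.428% of their EPCAM level. There 10 epithelial reference genes stood at 0.452 to 7.95%, and at most at 1.41% without ANPEP. In NB duodenum the 5 genes stood at 1.13 to 2.09%, with a reference median of 1.67%. APOA1 was detected in 7.40% of NB jejunal PTPRC barcodes against 37.4% of EPCAM barcodes after thinning (45.1% and 70.9% unthinned), at median depths of 10595 and 11839 UMIs. In NB jejunum the immune shares of the 5 genes thus lay below those of all reference genes, and in NB duodenum within their range (0.410 to 3.53%).

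Elsewhere the immune share of APOA1 lay above every reference gene of the library in NB salivary gland (0.937% against at most 0.613%), NB abomasum (19.3 CPM in both groups, 100.1% against at most 6.93%), NB ileum (4.04% against at most 1.36%) and NB cecum (5.31% against at most 4.61%). It lay within or below the reference range in NB colon (2.001%) and NB liver (0.0325%). In NB rectum (5.87%) it lay below ANPEP (15.3%) but above every other reference gene (at most 2.77%). The part of free RNA in these levels was not tested.

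APOC3 as a share of APOA1 differed between barcode classes. In NB duodenum it was 78.3% in EPCAM, 54.9% in PTPRC, 37.9% in COL1A2 and 19.4% in endothelial-marker barcodes, and in NB jejunum 54.4%, 37.0%, 26.0% and 18.0%. In both NB libraries the share was highest in EPCAM, then PTPRC, then COL1A2, and lowest in endothelial-marker barcodes. AD jejunum went the other way, at 119% in EPCAM and 208% in PTPRC barcodes, the latter from 12 APOA1 and 25 APOC3 UMIs.

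Among immune barcodes, APOE lay with the macrophage markers. PTPRC barcodes with at least 2 of 8 macrophage markers were called higher in APOE than the remaining PTPRC barcodes in 13 of 13 libraries with 20 barcodes on both sides, against 6.31% of gene and library pairs. The level in macrophage-marker barcodes was 82251 CPM in NB ileum, 27527 in NB jejunum, 24994 in NB abomasum, 17995 in NB duodenum, 16773 in NB colon, 3176 in NB cecum, 1519 in NB rectum, 1189 in NB salivary gland and 295 in NB liver. In AD it was 7358 in duodenum, 5213 in colon, 3966 in cecum and 3477 in jejunum. The remaining PTPRC barcodes stood at 3.098 to 202 CPM, and the macrophage-marker barcodes held 94.7 to 99.9% of all PTPRC APOE UMIs.

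The liver had the least APOE among macrophage-marker barcodes. Its 5052 macrophage-marker barcodes, the most of any library, had the lowest level, 295 (290 to 300) CPM, and the smallest ratio to other PTPRC barcodes, 11.1. After thinning, APOE was detected in 6.402% (5.74 to 7.11) of them, against 83.2% (81.3 to 84.9) in NB jejunum and 89.5% (86.5 to 92.1) in AD duodenum (18.7%, 96.4% and 94.8% unthinned, at median depths of 8127, 10850 and 3401 UMIs). The top 10% of hepatic macrophage-marker barcodes held 96.4% of their APOE UMIs. Rectum was the next lowest share, at 13.1%, and 97.8% of its UMIs were in the top 10%.

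The ileal macrophage-marker barcodes were spread widely. Their median was 19497 CPM, below the 28488 CPM of NB jejunum, but the 90th percentile was 179051 CPM against 57572, so the high ileal sum came from a minority of barcodes.

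**Figure D5:**
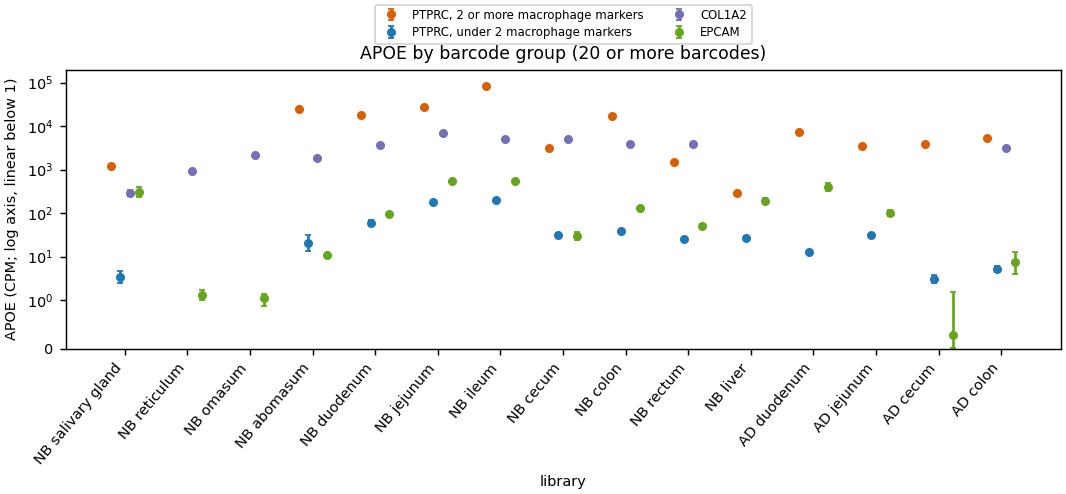
APOE in CPM (y axis, log scale, linear below 1) by library (x axis) in PTPRC barcodes with 2 or more macrophage markers (orange) or fewer (blue), COL1A2 barcodes (purple) and EPCAM barcodes (green), for groups of 20 or more barcodes; bars are exact Poisson 95% intervals. Orange points lie above blue in all 13 libraries with both, and purple points lie between 293 and 6953 CPM.

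In PTPRC barcodes as a whole, APOE was called higher in NB in 4 of 4 tissues, where 6.92% (duodenum), 2.91% (jejunum), 7.34% (cecum) and 5.91% (colon) of genes were. APOA1 was also called higher in NB in duodenum (132 against 0.752 CPM), jejunum (64.9 against 0.331) and cecum (12.1 against 0.0712), APOC3 in duodenum (72.7 against 0.273) and jejunum (24.02 against 0.689), and APOA4 in duodenum (17.9 against 0.513). These NB immune levels were 1.47 to 2.09% of the EPCAM level in duodenum, 0.288 to 0.424% in jejunum and 5.31% in cecum. The part of free RNA from the epithelium in these calls was not tested. None of the 6 genes was called higher in AD in PTPRC barcodes, against 8.23%, 4.07%, 5.64% and 4.97% of all genes from duodenum to colon. APOE levels were 11558 and 22701 CPM in NB duodenum and jejunum against 601 and 1406 CPM in AD. They were 1246 and 3039 CPM in NB cecum and colon against 93.1 and 192 CPM in AD. Macrophage-marker barcodes made up 61.6%, 80.0%, 34.4% and 12.2% of NB and 7.14%, 41.4%, 1.42% and 2.08% of AD PTPRC barcodes in these tissues. Within macrophage-marker barcodes the NB to AD ratio was smaller, at 7.92 (7.85 to 7.99) in jejunum, 3.22 (3.13 to 3.31) in colon and 2.45 (2.41 to 2.49) in duodenum. The cecal ratio was 0.801 (0.768 to 0.835), which was not called. In the remaining PTPRC barcodes APOE stood at 58.7 against 12.7 CPM in duodenum and 182 against 30.7 in jejunum. There cecum was at 32.1 against 3.098 and colon at 39.7 against 5.14 CPM, so the NB level was the higher in all 4 tissues.

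Stromal barcodes also held APOE. COL1A2 barcodes held it at 293 (salivary gland) to 6953 CPM (jejunum) in the 10 NB libraries other than liver, and in NB cecum (4973 against 3176) and rectum (3877 against 1519) they stood above the macrophage-marker barcodes. Colon was the only tissue with enough stromal barcodes of both stages, and there 3983 CPM in NB and 3229 in AD differed by 1.23-fold (1.18 to 1.29), which was not called. Barcodes with none of the 3 sorting genes held APOE too, above the stromal level in NB ileum (8415 against 5047 CPM), NB colon (5629 against 3983) and NB salivary gland (428 against 293); in NB ileum 301 of these with 2 or more macrophage markers held 121884 of the 127046 UMIs, and in NB colon 325 held 38316 of 39019. None of the 6 genes was called in colonic COL1A2 barcodes in either direction, against 3.78% of genes higher in NB and 5.74% higher in AD.

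In NB duodenum, jejunum, ileum and colon the APOE of EPCAM barcodes lay largely in barcodes that also had macrophage markers. In NB jejunum, the 731 EPCAM barcodes with under 2 of these markers held 1068 of 6977 APOE UMIs, at 133 CPM, and the 377 with 2 or more held 5909, at 1190 CPM. In NB ileum the 591 with under 2 held 505 of 3592 UMIs, at 79.0 CPM against 546 in all EPCAM barcodes, and in NB colon 837 held 279 of 1291. In NB duodenum 219 barcodes with 2 or more markers held 2966 of 3812 UMIs. NB cecum differed, with 69 of 89 UMIs in the 269 barcodes with under 2 markers, and so did NB abomasum (559 of 644) and NB liver (129 of 166). This division was made after seeing the data.

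The 1 pair called higher in AD, APOE in duodenum, was of this kind. AD stood at 405 (324 to 500) CPM against 96.5 (93.4 to 99.6) in NB, 4.20-fold higher (background 7.89%), but 37 of the 40 AD barcodes had under 2 macrophage markers and held 1 of the 86 UMIs, at 5.43 CPM against 23.1 in 3005 such NB barcodes. In barcodes with under 2 macrophage markers NB was also above AD in jejunum (133 against 19.8 CPM), cecum (26.1 against 0.278) and colon (29.3 against 7.47). When EPCAM barcodes were taken whatever the other sorting genes showed, the duodenal log2 ratio turned from -2.01 to 1.56 and the colonic ratio moved from 3.45 to 0.04.

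Over 37 library and barcode-class sums with at least 50 barcodes, the genes most like each of the 6 were found by Pearson's r of log2(CPM + 5) among 12107 genes. The sums share libraries, so r is a description. APOA4 and APOC3 were nearest to each other (0.98), and SLC28A2, a nucleoside transporter, and RBP2, the intestinal retinol binding protein, stood at 0.97 and 0.96 with APOA4. APOB was nearest to SLC28A2 (0.97) and MTTP (0.96), and MTTP to PNLIPRP2 (0.97) and to TREH, trehalase of the brush border (0.97).

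APOA1 had no equally close gene, its nearest being NR0B2 at 0.83, GALT at 0.82 and ENPP3 at 0.82, and it stood at 0.69 with APOA4, 0.69 with APOC3, 0.64 with APOB and 0.58 with MTTP. APOE stood at -0.10 to 0.10 with the other 5 and was nearest to AKR1B1, an aldo-keto reductase, at 0.94, followed by ARMCX3 at 0.86.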

How the data were processed

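The authors deposited 1 gene-by-barcode matrix of raw UMI counts per library; Cell Ranger 3.1.0 is named in the submitters' processing notes, and the bovine build was ARS-UCD1.2. The members and lists were chosen with earlier results of these data known; the lymphatic and cholangiocyte lists, and the alternatives named as such, were added after seeing the data.

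After the study's methods, a barcode was kept if it had at least 500 and at most 4000 genes, fewer than 50000 UMIs and a mitochondrial share below 40%. Doublets were scored by the Scrublet method, at 0.8% per 1000 barcodes, which removed 9884 of 129682 barcodes (7.62%); 119798 of 172405 were used. EPCAM, PTPRC and COL1A2 barcodes had 1 UMI or more of that gene and 0 of the other 2. UMIs were summed by symbol (25357 symbols) and divided by the total, as CPM. With 1 library per tissue and stage no test was run. A call needed a 2-fold difference with 5 CPM added and exact Poisson 95% intervals apart. A value of 0 was given the limit of 3 UMIs per group. Ratio intervals are exact and conditional on the summed UMIs.

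A barcode joined a marker list when at least 2 of its markers were detected and no other list had as many. Marker groups under 20 barcodes were not reported, except the 14 AD jejunal barcodes under the stricter mitochondrial limit. The EPCAM to PTPRC comparison had no such minimum, with 12 PTPRC barcodes in NB reticulum and 8 in NB omasum. For macrophage splits, PTPRC or EPCAM barcodes with at least 2 macrophage markers were set apart. Shares of barcodes were computed after thinning to 1000 UMIs (seed 1), with exact Clopper-Pearson intervals.

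Named genes were the 6 members, 74 of 81 listed pathway genes found in the files, the cell type markers and the 5 genes most like each member. The scripts were tested on simulated data. Python 3.11.15, NumPy 2.4.6, SciPy 1.17.1 and matplotlib 3.10.9 were used. The RefSeq table is of another assembly than the files, so it was used for symbols and for which genes neighbour or overlap each other, and no coordinate or sequence is given.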

Additional observations from a re-analysis of the deposited data

Results flagged for a closer look

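APOE in EPCAM barcodes differed in direction between tissues under the same contrast. The log2 ratio of NB to AD was -2.01 in duodenum, 2.36 in jejunum, 2.75 in cecum and 3.45 in colon, with 5 CPM added to both stages. The difference between tissues was not tested, since each value compared 1 NB with 1 AD library. The AD duodenal value rested on 86 UMIs in 40 barcodes, and 37 of these with under 2 macrophage markers held 1 of the 86. The AD cecal value rested on 1 UMI.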

How the results depend on the processing

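No paired analysis was possible because each tissue and stage had 1 library and the labels gave no shared replicate numbers. The count of 16 NB-higher pairs was 15 to 17 under the alternatives that kept all 4 tissues. The AD-higher count went from 1 to 0 with EPCAM barcodes taken whatever the other sorting genes showed and to 0 without the duodenum, and the APOE duodenal log2 ratio became 1.56 under the former, where barcodes with several sorting genes enter. NB-higher pathway pairs went from 52 to 28 without the duodenum. Leaving out 1 NB gut library at a time, the number of members higher in all small than all large intestinal libraries ran from 0 to 5 (5 without ileum, 1 without duodenum, 1 without colon) and of pathway genes from 0 to 15 (15 without ileum, 2 without colon, 1 without duodenum). That pathway count was 1 with no upper limit on genes, with 2 UMIs of the sorting gene, and with totals without mitochondrial and ribosomal or without very abundant genes, and 2 with 1 CPM added; the cause was not tested. Of 216 single ratios under 9 alternatives, 148 stayed within their interval, 67 moved and 1 called ratio changed sign (the duodenal APOE above); colonic APOA4 (0.41 to -0.11) and jejunal MTTP (0.40 to -0.04), not called, also changed sign in 1 alternative each; APOA1 ranged from 6.95 to 10.12 in duodenum, 7.41 to 8.29 in jejunum, 3.21 to 7.84 in cecum and 4.11 to 7.24 in colon, and jejunal MTTP from -0.04 to 3.47. EPCAM barcode numbers set the limits: 40 in AD duodenum allow up to 14.1 CPM at a count of 0.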
